A study of Mus musculus with 48 samples.

Results

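IGHG2B and IGHG2C encode the constant regions of the IgG2b and IgG2c heavy chains. They were described here in the heavy-chain B cell receptor (BCR) libraries of the lacrimal gland (LG) and the spleen of C57BL/6 (B6) mice. The members were the rows of the deposited tables whose constant gene call, without the allele, was IGHG2B or IGHG2C. These are 2 of the 8 constant genes called in the series, and both were found in all 48 libraries. The NOD-FMT group held 10 mice, gavaged daily for 3 weeks. Their inoculum was the fecal microbiota from 30 male NOD.B10.H2b donors more than 20 weeks old. The PBS-T group held 9 mice gavaged with PBS in place of microbiota. Before gavage, the 5-week-old recipients of both groups had feces mixed between cages and then drank ampicillin, vancomycin and metronidazole for 7 days, so the antibiotics were common to them. The NC1 group held 5 B6 mice without these steps, which the study uses as its BCR control. Since NC1 mice had neither antibiotics nor gavage, the parts of these steps in a difference from NC1 cannot be told apart. Each mouse gave 1 LG and 1 spleen library.

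In an activated B cell the assembled V(D)J exon is first read with IGHM and IGHD. Class switching then deletes DNA and joins the same V(D)J exon to another constant gene further along the chromosome, in the order IGHG3, IGHG1, IGHG2B, IGHG2C, IGHE, IGHA. B6 mice carry IGHG2C in the place that IGHG2A holds in many other strains. IgG2b and IgG2c bind complement and Fc receptors well, interferon gamma favours the switch to IgG2c, and IgG2b can also be made without T cell help. IgA is the main antibody of tear fluid, and LG plasma cells are its source.

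The reads that tell the members apart are short, so their sequences are shown first. On GRCm38 (GENCODE M21), all constant genes lie on the minus strand of chromosome 12. IGHG2B spans chr12:113302965-113307933 and IGHG2C spans chr12:113285325-113288932, and 14032 bases separate them. Their first coding exons (CH1) have 291 bases each and differ at 36, an identity of 87.63%. The first 40 bases of CH1 are given below for the 4 IgG genes, read 5′ to 3′ along the coding strand. Capitals mark the 3 positions where IGHG2B and IGHG2C differ.
IGHG2B, chr12:113307894-113307933: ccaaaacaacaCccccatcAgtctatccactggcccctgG
IGHG2C, chr12:113288893-113288932: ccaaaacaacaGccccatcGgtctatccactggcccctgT
IGHG1, chr12:113330484-113330523: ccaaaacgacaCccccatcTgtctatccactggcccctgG
IGHG3, chr12:113361193-113361232: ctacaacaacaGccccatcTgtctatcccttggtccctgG

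Counted from 1 at the first base of CH1, the substitutions from IGHG2B to IGHG2C in this window are C12G, A20G and G40T. The last one lies inside the site of the reverse primers. Of these, mnhr3_g has 0 mismatches to IGHG2B and IGHG1 and 1 to IGHG2C, and mnhr4_g has 0 mismatches to IGHG2C and 1 to IGHG2B. The primer for IGHG3 is mnhr5_g. Capitals below mark the base by which the first pair differs.
mnhr3_g: Ccaggggccagtggatagac
mnhr4_g: Acaggggccagtggatagac
mnhr5_g: gccagggaccaagggatagac

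The subclass of a read therefore rests on 20 bases of CH1 before the primer, 2 of which differ between the members. The deposited sequences end at the J gene, so the call could not be made again from them. The share of reads with a wrong subclass was not measured.

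Reads that carry a common unique molecular identifier (UMI) were merged into 1 consensus, which is counted once, and a clonotype is the set of sequences with 1 V gene, 1 J gene and 1 HCDR3 amino acid sequence. Sequences whose bases recurred in over 2 mice of a tissue were taken out. This removed 9.83% of the counts in the LG and 9.84% in the spleen, and 13.3% and 5.61% of those of IGHG2B and 15.7% and 4.90% of those of IGHG2C. The paper words its own rule alike but reports a much smaller part removed in both tissues. The reason was not tested. The median library lost 1.06% of its counts in the LG and 8.24% in the spleen, and the most were lost by PBS-T mouse 5 in the LG (39.8%) and PBS-T mouse 6 in the spleen (66.6%). With every sequence kept, 41 of 42 results were judged the same, and the other was the LG HCDR3 charge given below. Same means the same direction and side of the threshold or, for numbers of V genes called, a similar number. After the filter the libraries held 40105 to 264365 counts in the LG and 71859 to 2032338 in the spleen. IGHG2B had 76121 counts on 8235 unique sequences in the LG and 626655 counts on 144865 in the spleen. IGHG2C had 72868 counts on 7513 unique sequences in the LG and 437654 counts on 77941 in the spleen. Shares in single libraries carry 95% Wilson intervals, which cover counting error only. Marker genes were not measured in these libraries, so tissue identity could be checked only by isotype. IGHA took a median of 96.5% of counts in the LG, and IGHM a median of 70.6% in the spleen (57.8% to 85.8%). Single LG libraries went against this. That of PBS-T mouse 9 had 13.9% IGHA and 48.9% IGHM, that of PBS-T mouse 2 had 42.3% and 25.0%, and PBS-T mice 8, 3 and 5 and NC1 mouse 2 had 72.4%, 76.9%, 86.7% and 88.6% IGHA. PBS-T mice 9 and 2 are also those with the highest LG shares of IGHG2C and IGHG2B. Whether these glands held B cells of another tissue was not tested.

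The mouse of origin was checked on identical member sequences before the filter. Of the IGHG2B and IGHG2C sequences of an LG library, 3 to 106 recurred in the spleen of the same mouse and 0 to 13 in the spleen of any other mouse. The LG library of PBS-T mouse 5 stood apart. It held 8999 member sequences, of which 14 (0.156%) recurred in its own spleen library, and it had 54 in common with the LG library of NC1 mouse 4 and 53 with that of PBS-T mouse 7. Its 1234 IGHG2B and 1213 IGHG2C clonotypes compare with 23 to 130 and 6 to 125 in the other LG libraries. The LG library of NC1 mouse 2 had 16 sequences in common with its own spleen and 13 with the spleen of NC1 mouse 3, and 45 with the LG of NC1 mouse 3. Comparisons of shares were repeated without PBS-T mouse 5, NC1 mouse 2 and NC1 mouse 3, a choice made after these values were seen. The word merged stands in the names under which the data of 11 LG libraries were deposited, without saying what was merged. These libraries came from 6 NOD-FMT, 4 PBS-T and 1 NC1 mice, and the sample titles do not hold the word. For LG shares in NOD-FMT against PBS-T mice, in the LG against the spleen, and for the mutations and HCDR3s of IGHG2C against IGHG2B, values within the merged and the other libraries are therefore also given. Differences from NC1, which has 1 merged library, V gene usage in the LG and recovery in the spleen are given without this split.

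In most LG libraries the members took a small part of a repertoire made mostly of IgA, the main exceptions being PBS-T mice 9 and 2, and their level varied less among NOD-FMT than among PBS-T mice. IGHG2B held 0.833% to 2.11% of counts in the NOD-FMT LG, with a median of 1.71%. Its share in the PBS-T LG ran from 0.621% (95% interval 0.569 to 0.677) to 30.5% (30.2 to 30.8), with a median of 1.87%. The 5 NC1 libraries had 1.83%, 4.14%, 1.203%, 0.804% and 1.18%. The groups overlapped, but 4 of 9 PBS-T libraries lay above every NOD-FMT library and 2 lay below all of them.

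IGHG2C was spread even more widely. Its share was 0.148% to 0.864% in NOD-FMT mice (median 0.361%) and 0.0306% to 32.1% in PBS-T mice (median 0.284%). The lowest value, in PBS-T mouse 6, rested on 17 counts (interval 0.0191 to 0.0490), and the highest, in PBS-T mouse 9, on 36409. NC1 mice had 0.238%, 3.57%, 0.320%, 0.539% and 0.328%. Of the 9 PBS-T libraries, 4 had more IGHG2C than any NOD-FMT library and 4 had less. On the log2 scale of percent the SD was 0.75 in NOD-FMT mice (n = 10) and 3.83 in PBS-T mice (n = 9).

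The differences between the means were smaller than the spread among PBS-T mice, though not than that among NOD-FMT mice, and did not pass the test. NOD-FMT minus PBS-T was -0.71 on the log2 scale for IGHG2B (0.613-fold, p = 0.27, two-sided exact permutation test over mice, adjusted p = 0.694) and -0.81 for IGHG2C (0.569-fold, exact permutation p = 0.52, adjusted p = 0.78). Adjustment was by Benjamini-Hochberg over the 18 tests of shares and ratio. Within the merged libraries the differences were 0.30 and 0.35 (exact permutation p = 0.657 and 0.867), and within the others -1.55 and -1.88 (exact permutation p = 0.103 and 0.373), so the direction was not the same in both sets. Differences from NC1, which share the NC1 mice, were -0.02 and -0.59 for NOD-FMT and 0.68 and 0.23 for PBS-T (exact permutation p = 0.365 to 0.953). Leaving out PBS-T mouse 2 moved the IGHG2B difference from PBS-T to -0.25, and leaving out PBS-T mouse 9 moved that of IGHG2C to -0.11.

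**Figure D1:**
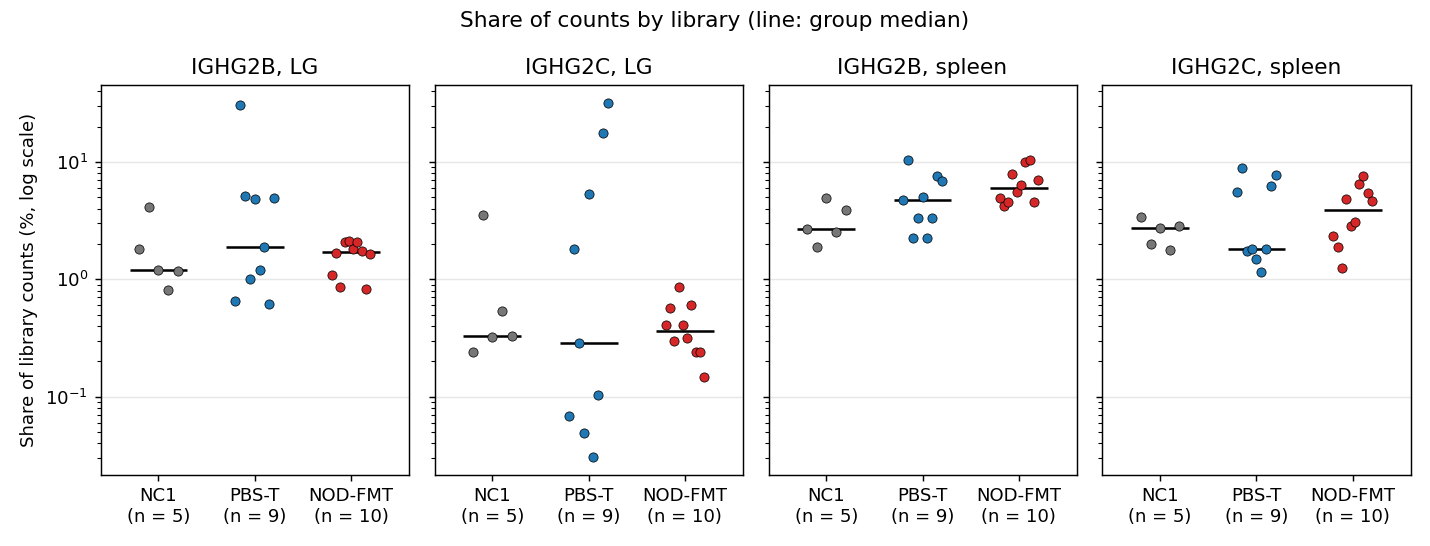
Share of library counts (%, log axis) held by IGHG2B and IGHG2C in the LG and the spleen. Points are single libraries of the NC1, PBS-T and NOD-FMT groups and lines are group medians. The LG shares of PBS-T mice reach from 0.0306% to 32.1% for IGHG2C, whereas those of NOD-FMT mice stay between 0.148% and 0.864%.

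By median, the spleens of each group held more of both members, and among PBS-T mice the shares scattered less than in the LG. On the log2 scale of percent the SD of PBS-T spleens was 0.78 for IGHG2B and 1.16 for IGHG2C, against 1.83 and 3.83 in the LG, whereas in NOD-FMT mice it was 0.47 and 0.84 in the spleen against 0.52 and 0.75. IGHG2B made up 4.22% to 10.3% of counts in NOD-FMT mice (median 5.99%) and 2.24% to 10.4% in PBS-T mice (median 4.76%). NC1 mice had 2.67%, 1.88%, 4.98%, 2.55% and 3.90%. IGHG2C made up 1.24% to 7.60% in NOD-FMT mice (median 3.87%) and 1.16% to 8.91% in PBS-T mice (median 1.82%). For NC1 mice its shares were 3.41%, 2.01%, 2.72%, 1.76% and 2.87%. In each pair of groups the values overlapped.

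NOD-FMT and PBS-T spleens differed by 0.47 on the log2 scale for IGHG2B (1.39-fold, exact permutation p = 0.121, adjusted p = 0.694) and by 0.20 for IGHG2C (1.15-fold, exact permutation p = 0.668, adjusted p = 0.858). The IGHG2C direction turned in other units, with -0.21 by share of clonotypes, -0.27 by share of IgG counts and -0.0214 in percentage points. IGHG2B had the lowest p of the 18 tests in NOD-FMT against NC1 spleens, with 2.64 ± 0.47 (SD, n = 10) against 1.59 ± 0.55 (SD, n = 5) on the log2 scale of percent. This is a 2.07-fold difference with an exact permutation p of 0.003 and an adjusted p of 0.0539. PBS-T spleens lay between, at 2.17 ± 0.78 (SD, n = 9). Over the 8 constant genes of this comparison alone its adjusted p was 0.0226 (exact permutation test), 1 of 3 called of 8 (37.5%), with IGHG3 higher (1.57, adjusted p = 0.0408) and IGHA lower (-0.70, adjusted p = 0.0226) by the same exact test. None of the 18 tests passed after adjustment and 1 had an unadjusted p below 0.05, by the exact permutation test and by the exact Mann-Whitney test alike. With 1 mouse left out at a time, the NOD-FMT against NC1 value of IGHG2B passed in 2 of 15 runs. It had 1.23 and an adjusted exact permutation p of 0.018 without NC1 mouse 3, and 1.11 and 0.045 without NOD-FMT mouse 10. Its lowest value was 0.88, without NC1 mouse 2, and the adjusted exact permutation p reached 0.198 over the runs. For IGHG2C the NOD-FMT against NC1 difference was 0.50 (exact permutation p = 0.228).

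The ratio of the subclasses varied most among the PBS-T glands. IGHG2C counts per IGHG2B count lay between 0.0894 and 0.413 in the 10 NOD-FMT LG libraries and between 0.130 and 0.863 in the 5 NC1 libraries. Among PBS-T LG libraries, 6 had 0.0253 to 0.105, and PBS-T mice 5, 9 and 8 had 1.11, 6.53 and 28.6. These 3 were the only LG libraries with more IGHG2C than IGHG2B. The mean log2 ratio was -2.06 ± 0.72 (SD, n = 10) in NOD-FMT and -1.95 ± 3.62 (SD, n = 9) in PBS-T mice, and the difference of -0.11 was far below the spread (exact permutation p = 0.929, adjusted p = 0.953). It was 0.74 without PBS-T mouse 8, 0.04 in the merged libraries and -0.33 in the others. Spleen ratios ran from 0.271 to 1.28, and 19 of 24 spleens had more IGHG2B. The NOD-FMT minus PBS-T difference in the spleen was -0.28 (exact permutation p = 0.325, adjusted p = 0.729).

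As a part of IgG counts alone, a unit run as an alternative to the share of all counts, IGHG2B passed between the NOD-FMT and PBS-T glands. It made up 62.8% to 90.1% of the IgG counts of NOD-FMT LG libraries (median 75.2%) and 3.22% to 93.1% of those of PBS-T LG libraries (median 39.0%). In the opposite direction to the share of all counts, the difference was 1.31 on the log2 scale. It had an exact permutation p of 0.00201 and an adjusted p of 0.0362 over the 18 tests, not over the units tried. It was 1.93 in the merged libraries (exact permutation p = 0.00952) and 0.83 in the others (exact permutation p = 0.175), and between 0.90 and 1.51 with each mouse left out. In NC1 LG libraries IGHG2B made up 52.8% to 84.7% of IgG counts (median 71.9%). By this share NOD-FMT differed from NC1 by 0.20 and PBS-T by -1.11 (exact permutation adjusted p = 0.451 for both). IGHG1, the IgG gene just before IGHG2B, had a lower share of all counts in NOD-FMT than in PBS-T glands. Its share of all LG counts was 0.00108% to 0.369% in NOD-FMT mice and 0.0768% to 10.5% in PBS-T mice, a difference of -4.0 on the log2 scale (exact permutation p = 0.000552, adjusted p = 0.00442 over the 8 constant genes). That difference was -5.51 in the merged libraries and -2.78 in the others (exact permutation p = 0.00952 and 0.0556). As a share of IgG counts, IGHG1 differed by -1.99 (exact permutation p = 0.105, adjusted p = 0.205), by -3.88 in the merged libraries and by -0.41 in the others (exact permutation p = 0.0143 and 0.849). IGHG1 was 1 of 3 constant genes of 8 (37.5%) past the threshold in this comparison, with IGHD lower (-2.16, adjusted p = 0.013) and IGHA higher (0.55, adjusted p = 0.00953) in NOD-FMT mice by the same exact permutation test. In the merged and the other libraries IGHD had -2.37 and -2.13 (exact permutation p = 0.0286 and 0.0952) and IGHA 0.20 and 0.83 (exact permutation p = 0.019 and 0.214). The IGHG1 share of all counts in NC1 LG libraries was 0.0906% to 0.137%. NOD-FMT differed from NC1 by -1.47 and PBS-T by 2.53 on the log2 scale (exact permutation adjusted p = 0.4 and 0.152). Since shares sum to a fixed total, a lower share of one gene and a higher share of another cannot be told apart.

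On the log2 scale of percent, both members held less of the LG than of the spleen of the same mouse. IGHG2B fell by 1.38 on the log2 scale of percent, so its spleen share was 2.6-fold that of the LG, and it was lower in 21 of 24 mice (two-sided sign-flip permutation test with 100000 resamples, adjusted p = 0.00018). IGHG2C fell by 2.67, a spleen share 6.36-fold that of the LG, in 20 of 24 mice (permutation adjusted p = 0.00018). The exceptions were PBS-T mice 2 and 3 and NC1 mouse 2 for IGHG2B, and PBS-T mice 5, 8 and 9 and NC1 mouse 2 for IGHG2C. The ratio of IGHG2C to IGHG2B was also lower in the LG, by 1.29 on the log2 scale, in 20 of 24 mice (permutation adjusted p = 0.0111). In plain percentage points the differences were -2.15 for IGHG2B and -0.964 for IGHG2C and did not pass (permutation adjusted p = 0.0869 and 0.531). As shares of IgG counts, IGHG2B was 0.24 higher in the LG on the log2 scale (permutation adjusted p = 0.313), and IGHG2C kept its direction and its call. The directions by share of all counts also stood within the merged libraries (-1.88, -3.19 and -1.31) and the others (-0.95, -2.23 and -1.28). The background is wide here, since 8 of 8 constant genes (100%) differed between the tissues, and IGHA alone was higher in the LG.

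Clonotypes gave the opposite direction. In the LG, IGHG2B took 2.65% to 12.7% of clonotypes (median 6.28%) and in the spleen 0.930% to 4.12% (median 2.03%). The difference was 1.58 on the log2 scale and positive in 24 of 24 mice (permutation adjusted p = 1.5e-05). IGHG2C clonotypes took 0.959% to 12.8% in the LG (median 3.14%) and 0.337% to 2.75% in the spleen (median 0.928%). Their difference was 1.81, positive in 23 of 24 mice (permutation adjusted p = 1.5e-05). So IgG2 was a larger part of the distinct LG clonotypes and a smaller part of the LG counts than in the spleen. Summed over spleens, 2672756 clonotypes had IGHM, 656083 had IGHD and 102411 had IGHA, against 4872, 612 and 32179 over LG libraries. Clonotype shares of the other constant genes were not compared between the tissues. Whether this direction is particular to the members was therefore not tested. By clonotypes the ratio of IGHG2C to IGHG2B differed by 0.23 between the tissues (permutation p = 0.22).

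**Figure D2:**
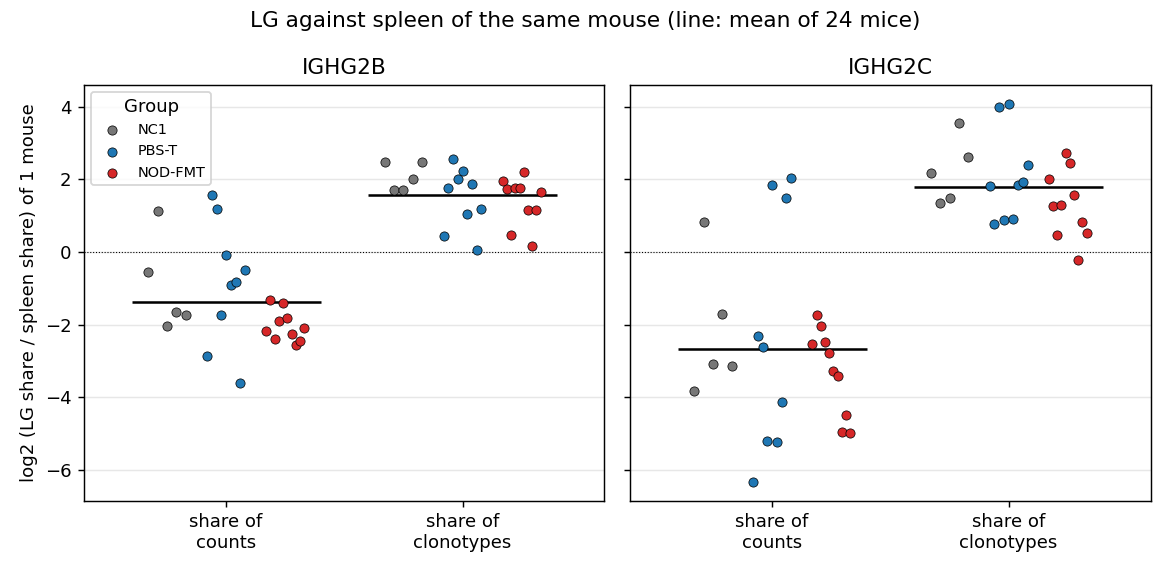
Each point is the log2 of the LG share over the spleen share of 1 mouse, for shares of counts and of clonotypes, coloured by group, and lines are means of 24 mice. For IGHG2B the mean is -1.38 by counts and 1.58 by clonotypes, and for IGHG2C it is -2.67 and 1.81.

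LG and spleen levels of a mouse were compared by rank. Across the 24 mice, Spearman's rho between LG and spleen shares was 0.16 for IGHG2B, 0.27 for IGHG2C and -0.04 for their ratio. Within the spleen, IGHG2C was the constant gene most like IGHG2B (rho 0.72 over 24 libraries), ahead of IGHG3 (0.65), and IGHG2B was most like IGHG2C. In the LG the most alike gene was IGHM for both members (rho 0.39 for IGHG2B and 0.42 for IGHG2C), with 0.38 between the members themselves. These rho values are descriptions over libraries whose shares sum to a fixed total. The NOD-FMT minus PBS-T difference of IGHG2B was lower in the LG than in the spleen by 1.18 on the log2 scale (exact permutation p = 0.0485), which did not pass over the 3 such tests (adjusted p = 0.146).

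A few clonotypes carried most of the IgG2 counts in many LG libraries. The largest clonotype held over 50% of the IGHG2B counts in 6 of 24 LG libraries and over 50% of the IGHG2C counts in 7 of 24, and in 0 of 24 spleens for either gene. LG libraries other than that of PBS-T mouse 5 had at most 130 IGHG2B clonotypes, while the spleens had 618 to 11162. The median LG library had 39.8% of its IGHG2B and 57.1% of its IGHG2C clonotypes at 1 count. In the spleen the medians were 61.6% and 61.3%.

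The leading clonotypes of single mice are shown by the nucleotides of the HCDR3 for 4 LG and 4 spleen libraries in which 1 clonotype held a large share of a member. They are given in lower case, with no part marked, 5′ to 3′ in the commonest form.
PBS-T mouse 2, LG, IGHV1-9/IGHJ2: tactacggtagtagctttgactac
PBS-T mouse 8, LG, IGHV14-3/IGHJ4: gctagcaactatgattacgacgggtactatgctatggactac
NOD-FMT mouse 1, LG, IGHV14-3/IGHJ1: gctggtagttaccctttcgatgtc
NC1 mouse 2, LG, IGHV1-59/IGHJ2: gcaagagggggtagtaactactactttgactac
NC1 mouse 3, spleen, IGHV1-53/IGHJ3: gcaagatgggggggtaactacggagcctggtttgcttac
NC1 mouse 1, spleen, IGHV1-19/IGHJ1: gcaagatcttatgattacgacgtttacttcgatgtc
NOD-FMT mouse 8, spleen, IGHV5-4/IGHJ4: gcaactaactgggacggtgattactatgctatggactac
NOD-FMT mouse 3, spleen, IGHV1-59/IGHJ4: gcaagggagatggactac

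In PBS-T mouse 2 the IGHV1-9/IGHJ2 clonotype with HCDR3 YYGSSFDY held 86.1% of the IGHG2B and 75.9% of the IGHG2C counts of the LG. It had 23157 IGHG2B, 1203 IGHG2C and 1245 IGHM counts, and 60 IGHG2B counts in the spleen of the same mouse. PBS-T mouse 8 had an IGHV14-3/IGHJ4 clonotype with HCDR3 ASNYDYDGYYAMDY, with 13886 of 14412 IGHG2C counts (96.4%), 12 IGHG2B counts and 331 IGHG2C counts in its spleen. So the leading clonotype was mostly IgG2b in one mouse and almost all IgG2c in the other. IGHV14-3 also led in 2 NOD-FMT glands with other HCDR3s, ARGDY with IGHJ2 in mouse 7 (60.4% of IGHG2B) and AGSYPFDV with IGHJ1 in mouse 1 (78.1% of IGHG2C).

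IgA and IgG2 came from 1 clonotype in some glands. The ARGGSNYYFDY clonotype of NC1 mouse 2 had 1494 IGHG2B counts (55.9% of that gene), 72 IGHG2C counts and 4457 IGHA counts. In NOD-FMT mouse 3, an IGHV10-3/IGHJ4 clonotype held 57.9% of IGHG2B and 79.7% of IGHG2C counts and had 364 IGHA counts. PBS-T mouse 1 had ASNPGGGLDY, IGHV1-54/IGHJ2, with 153 IGHG2B, 1 IGHG2C and 272 IGHA counts. By contrast, AGSYPFDV had 763 IGHG2C counts and no other isotype in that gland, and ARSGGSSYVDY, IGHV1-69/IGHJ2, of NC1 mouse 2 had 1633 IGHG2C (70.8%), 2 IGHG2B and 0 IGHA counts.

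In the spleen the largest shares were smaller. ARWGGNYGAWFAY held 41.4% of the IGHG2B counts of NC1 mouse 3, with 8131 IGHG2B and 157 IGHG2C counts. ARSYDYDVYFDV held 42.6% of the IGHG2C counts of NC1 mouse 1, with 7645 IGHG2C and 8 IGHG2B counts. ATNWDGDYYAMDY of NOD-FMT mouse 8 was broad, with 11198 IGHG2C counts (49.8%), 2538 IGHG2B counts (13.6%), 2516 IGHM and 19908 IGHA counts. AREMDY of NOD-FMT mouse 3, the deepest library, had the most counts of these, with 29146 IGHG2B counts (18.3%), 41033 IGHG3 and 17666 IGHA counts. Of the 5 spleen clonotypes with the largest share of IGHG2C, 4 had 8 to 348 IGHG2B counts, each fewer than its IGHG2C counts.

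Mutations in these clonotypes were mostly few. The mean number of V mismatches to germline, weighted by counts, was 0.025 for YYGSSFDY in IGHG2B, 0.043 for ASNYDYDGYYAMDY in IGHG2C, 0.080 for ARSYDYDVYFDV and 0.24 for ARWGGNYGAWFAY. AGSYPFDV had at least 4 mismatches in every sequence (mean 4.02), AREMDY had a mean of 4.27, and TTGGFAY, IGHV14-4/IGHJ3, with 10.8% of the spleen IGHG2B counts of PBS-T mouse 7, had 7.31.

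**Figure D3:**
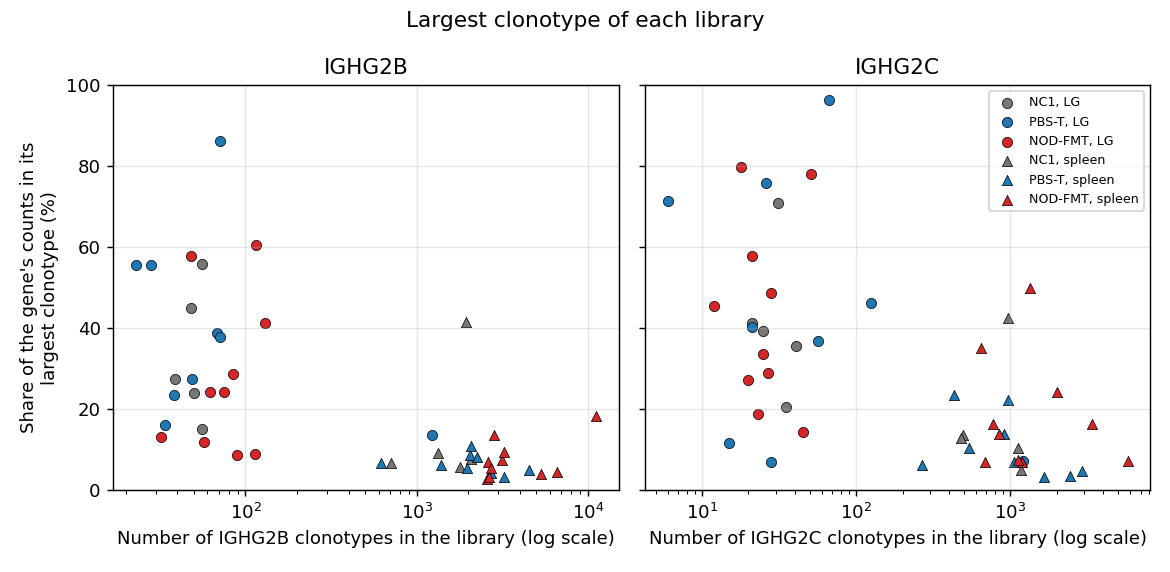
Share of a gene's counts held by its largest clonotype (%) against the number of clonotypes of that gene in the library (log axis), for IGHG2B and IGHG2C. Circles are LG and triangles are spleen libraries, coloured by group. LG libraries with few clonotypes reach 86.1% for IGHG2B and 96.4% for IGHG2C, and spleen libraries stay below 50%.

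LG IgG2 clonotypes were often found again in the spleen of the same mouse. A median of 47.5% of LG IGHG2B clonotypes (1.62% to 85.3%) and 37.4% of LG IGHG2C clonotypes (1.24% to 85.0%) occurred in the own spleen with any constant gene. The own spleen held more of them than any other spleen in 22 of 24 mice for IGHG2B and in 20 of 24 for IGHG2C. NOD-FMT mice had medians of 57.1% and 53.6%, PBS-T mice 39.1% and 9.52% and NC1 mice 30.8% and 29.0%. The lowest values were those of PBS-T mouse 5. Spleen depth differs between mice, and its part in these values was not tested.

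Somatic hypermutation (SHM) was compared between the subclasses within each library, as the mean number of V mismatches per unique sequence. In the LG, IGHG2C had 2.56 ± 1.49 (SD, n = 23) and IGHG2B 1.81 ± 0.80. IGHG2C was higher by 0.75, in 16 of 23 mice (sign-flip permutation test, adjusted p = 0.0247), and by 0.40 among libraries with at least 30 sequences of each gene (permutation adjusted p = 0.179). Unmutated sequences made up 33.8% of IGHG2C and 42.8% of IGHG2B sequences, lower for IGHG2C in 19 of 23 mice (permutation adjusted p = 0.0025). In the spleen the means were 3.02 ± 0.73 and 2.93 ± 0.60 (SD, n = 24), a difference of 0.09 (permutation adjusted p = 0.364), whereas the unmutated share was 28.3% against 31.1%, lower for IGHG2C in 17 of 24 mice (permutation adjusted p = 0.0025). IGHG2C thus had fewer unmutated sequences in both tissues.

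The weighting mattered for these values. With sequences weighted by counts, the LG differences were 0.62 mismatches and -15.6 percentage points and no longer passed, and the spleen difference in the unmutated share turned to 8.77 points higher for IGHG2C (permutation adjusted p = 0.0366). Within the merged LG libraries the mean differed by 1.21 (exact sign-flip permutation p = 0.0371) and within the others by 0.33 (exact permutation p = 0.314), while the unmutated share differed by -9.74 and -8.35 points (exact permutation p = 0.0342 and 0.0273).

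Between groups, the mean number of mismatches was compared in each gene. IGHG2B had 1.45 ± 0.44 (SD, n = 10) in NOD-FMT and 2.08 ± 0.80 (SD, n = 9) in PBS-T LG libraries, a difference of -0.64 (exact permutation p = 0.0444). IGHG2C had 2.01 ± 1.03 (SD, n = 10) and 3.43 ± 1.98 (SD, n = 8), a difference of -1.42 (exact permutation p = 0.0653). Neither passed over the 4 tests (adjusted p = 0.131 for both). The IGHG2B difference was -0.87 in the merged libraries (exact permutation p = 0.0143) and -0.60 in the others (exact permutation p = 0.19). In the spleen the differences were 0.46 for IGHG2B and -0.07 for IGHG2C (exact permutation p = 0.131 and 0.844).

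HCDR3s of IGHG2C were slightly longer and less positive than those of IGHG2B. Spleen IGHG2C clonotypes had a mean length of 11.8 residues, 0.13 more than IGHG2B clonotypes, in 18 of 24 mice (sign-flip permutation test, adjusted p = 0.0104). Their mean net charge was -0.28 against -0.19, lower in 22 of 24 mice (permutation adjusted p = 4e-05). In the LG the length differed by 0.45 residues (higher in 16 of 23 mice, permutation adjusted p = 0.0199), by 0.59 in the merged and 0.32 in the other libraries (exact permutation p = 0.0361 and 0.198). The LG charge differed by -0.15, lower in 16 of 23 mice (permutation adjusted p = 0.058), by -0.24 and -0.059 within the same sets (exact permutation p = 0.141 and 0.192), and by -0.18 with every sequence kept (permutation adjusted p = 0.023). The charge difference of the spleen is small beside a unit charge, and it had the same sign in almost every mouse.

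V gene usage was compared over spleen clonotypes, since LG libraries hold too few of them for such a fit. Between IGHG2C and IGHG2B of the same mouse, 13 of 77 V genes (16.9%) passed edgeR's quasi-likelihood test with Benjamini-Hochberg adjustment, 6 higher (7.79%) and 7 lower (9.09%) in IGHG2C. IGHV4-1 took 1.03% ± 0.82 (SD, n = 24) of IGHG2C and 0.486% ± 0.168 of IGHG2B clonotypes, a log2 fold change of 0.89 ± 0.15 (SE, adjusted p = 2.44e-06 by edgeR), and was higher in 21 of 24 mice. IGHV8-5 (0.81), IGHV14-4 (0.64), IGHV1-50 (0.46), IGHV5-12 (0.43) and IGHV1-69 (0.23) were also higher. The V genes lower in IGHG2C were IGHV5-6 (-0.44), IGHV10-1 (-0.39), IGHV1-72 (-0.29), IGHV7-3 (-0.29), IGHV1-64 (-0.26), IGHV1-53 (-0.26) and IGHV1-82 (-0.20). IGHV1-53, the most used of these, took 3.85% of IGHG2C and 4.65% of IGHG2B clonotypes. With deposited counts in place of clonotypes 3 V genes passed, and without the pairing by mouse 5 did. IGHV14-4 was called in all 8 other settings and with each of 24 mice left out, whereas IGHV5-12 was called in 0 of the 8 settings and with 9 of 24 mice left out. IGHV1-69 was called in 2 of the 8 settings and 13 of 24 such runs, IGHV7-3 in 3 and 8, IGHV1-82 in 3 and 10, and IGHV10-1 in 3 and 15. The remaining 7 V genes were called with each of the 24 mice left out. Of these, IGHV4-1, IGHV8-5, IGHV1-50, IGHV1-64, IGHV1-72 and IGHV5-6 were not called with counts in place of clonotypes. IGHV1-53 and IGHV1-72 were not called without the pairing by mouse.

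Between NOD-FMT and PBS-T spleens, 7 of 73 V genes (9.59%) passed in IGHG2B, 4 higher (5.48%) and 3 lower (4.11%) in NOD-FMT mice, and 3 of 48 (6.25%) in IGHG2C, 2 higher (4.17%) and 1 lower (2.08%). With 1 mouse left out at a time, 3 to 14 passed in IGHG2B and 1 to 4 in IGHG2C. IGHV14-3 took 2.87% ± 1.05 (SD, n = 10) of NOD-FMT and 1.23% ± 0.30 (SD, n = 9) of PBS-T IGHG2B clonotypes, a log2 fold change of 1.26 ± 0.18 (SE, edgeR adjusted p = 5.92e-07). For IGHG2C clonotypes it was 2.65% ± 1.19 and 1.25% ± 0.34, a log2 fold change of 1.10 ± 0.24 (SE, edgeR adjusted p = 0.00129). NC1 spleens had 1.2% ± 0.28 (SD, n = 5) and 1.04% ± 0.14. Over both members together, IGHV14-3 took 1.98% to 5.39% in the 10 NOD-FMT mice (median 2.57%), 0.771% to 1.62% in the 9 PBS-T mice and 0.938% to 1.58% in the 5 NC1 mice, so the NOD-FMT values did not overlap those of the other groups. These are the clonotypes used by the test in which IGHV14-3 had the lowest p, so this is no further support. For IGHV1-59 and IGHV8-8 the groups overlapped, and the other V genes were not examined in this way. With each of the 19 mice left out IGHV14-3 was called every time in both members. With counts in place of clonotypes it was called in IGHG2B and not in IGHG2C, where no V gene passed.

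IGHV1-59 was likewise higher in both members, by 0.89 ± 0.23 in IGHG2B (SE, edgeR adjusted p = 0.00781) and 1.06 ± 0.28 in IGHG2C (SE, edgeR adjusted p = 0.0101). Leaving out NOD-FMT mouse 3 gave 0.57 in IGHG2B and 0.84 in IGHG2C, which did not pass (edgeR adjusted p = 0.0604 and 0.0716). IGHV8-8 was lower in both, by -1.0 ± 0.22 and -0.91 ± 0.26 (SE, edgeR adjusted p = 0.00144 and 0.0153). With each of the 19 mice left out it was called every time in IGHG2B and in 16 runs in IGHG2C, where it did not pass without NOD-FMT mouse 3 or PBS-T mice 2 or 8 (edgeR adjusted p up to 0.0951). The mean IGHV8-8 share of IGHG2B clonotypes was 1.23% in NOD-FMT, 2.36% in PBS-T and 1.4% in NC1 mice. For IGHG2C clonotypes it was 1.38%, 2.31% and 2.07%. NC1 thus lay nearer to NOD-FMT in IGHG2B and nearer to PBS-T in IGHG2C. In IGHG2B, IGHV1-63 (0.83) and IGHV1-42 (0.61) were also higher and IGHV1-36 (-1.13) and IGHV5-9 (-0.98) lower, which held in 11, 10, 17 and 9 of the 19 runs. For IGHG2C, IGHV1-42 had -0.03 (edgeR adjusted p = 0.97), and the other three were not among the 48 V genes left by the filter on low values. IGHV5-9 had -0.31 and an edgeR adjusted p of 0.553 without PBS-T mouse 2. Its mean share of IGHG2B clonotypes was 0.456% in NOD-FMT, 0.864% in PBS-T and 0.478% in NC1 mice. Whether the IGHG2B and IGHG2C changes differed was not tested.

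The clonotypes behind the IGHV14-3 values were counted next. After the filter on shared sequences, which can itself lower recurrence, the 10 NOD-FMT spleens held 1463 distinct IgG2 clonotypes with IGHV14-3. Of these, 13 were in more than 1 mouse. Over all V genes and spleens, 98.6% of IGHG2B and 99.1% of IGHG2C clonotypes were in 1 mouse after the same filter. The J genes of the IGHV14-3 clonotypes were mainly IGHJ2 (40.1%) and IGHJ4 (28.9%), against 37.0% and 29.2% in PBS-T mice, and the mean HCDR3 length was 11.3 against 11.4 residues. The same V gene was compared in the other isotypes. It was higher in IGHA (1.21, edgeR adjusted p = 6.91e-07, 5.13% of V genes called), and had 0.55 in IGHG1, 0.12 in IGHM and 0.04 in IGHD (edgeR adjusted p = 0.431, 0.69 and 0.993). IGHV1-59 was higher in IGHA (1.44), IGHG1 (1.78) and IGHM (0.41), with edgeR adjusted p of 8.96e-07, 0.00184 and 0.0386, and had 0.22 in IGHD (edgeR adjusted p = 0.708). NOD-FMT mouse 3 held 726 of the 1443 IgG2 clonotypes with IGHV1-59 in NOD-FMT spleens. IGHJ4 took 37.6% of these 1443 and 22.3% of those of PBS-T mice. The fits of the other isotypes were not repeated without that mouse, so its part in them was not tested. In IGHG3 neither V gene was among the 27 tested. IGHV8-8 passed in no other isotype, with -0.46 in IGHA, -0.91 in IGHG1, -0.69 in IGHG3 and -0.03 in both IGHM and IGHD (edgeR adjusted p = 0.177, 0.105, 0.113, 0.923 and 0.993). The groups share these mice across isotypes, and clonotypes with several isotypes count in each, so these are not independent of the values for the members.

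In the LG, IGHV14-3 took 0.565% to 5.95% of IgG2 clonotypes in NOD-FMT mice (median 3.21%), 0% to 40.9% in PBS-T mice (median 1.18%) and 0% to 1.35% in NC1 mice. The highest value was that of PBS-T mouse 8, whose largest clonotype uses this V gene. The mean difference was -2.74 percentage points (exact permutation p = 0.882, adjusted p = 0.936 over 3 V genes), and 1.6 without that mouse (exact permutation p = 0.152, adjusted p = 0.228), a comparison chosen after the spleen values were seen. The other V genes of this comparison did not pass either, with 0.90 points for IGHV1-59 and -0.051 for IGHV8-8 (exact permutation p = 0.0604 and 0.936, adjusted p = 0.181 and 0.936).

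**Figure D4:**
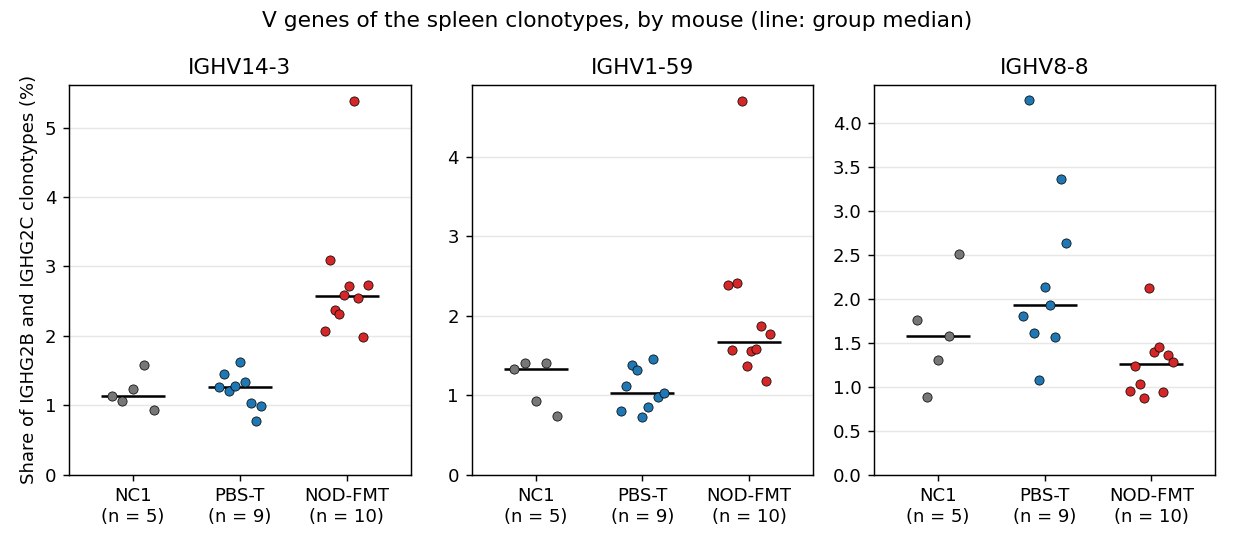
Share (%) of the spleen IGHG2B and IGHG2C clonotypes that use IGHV14-3, IGHV1-59 or IGHV8-8, the V genes that passed in both members. Points are mice, lines are group medians and axes start at 0. For IGHV14-3, which had the lowest p in the test on these clonotypes, the 10 NOD-FMT mice lie at 1.98% or above and the other mice at 1.62% or below. For IGHV1-59 and IGHV8-8 the groups overlap.

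Some clonotypes held both subclasses. In the spleen there were 8125 of them over the 24 libraries, 57 to 1487 in each, or a median of 9.83% of IGHG2B and 23.6% of IGHG2C clonotypes. The rarer subclass had 1 count in 4103 of these (50.5%) and under 1% of the counts of both in 316. IGHG2B had more counts in 3967 and IGHG2C in 2826. In the LG there were 314, of which 222 were in PBS-T mouse 5 and 0 to 12 in each other library. The rarer subclass had 1 count in 152 of the 314. A subclass read wrongly in an abundant clonotype would give such a count, and its part was not tested.

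Overlap was compared by the cosine index, the number of clonotypes with both genes over the geometric mean of the numbers with each. For IGHG2B with IGHG2C it was 0.158 ± 0.031 (SD, n = 24 spleens). It was 0.079 ± 0.023 for IGHG2B with IGHG1, 0.060 ± 0.025 for IGHG2C with IGHG1 and 0.104 ± 0.018 for IGHG2B with IGHG3. The IGHG2B-IGHG2C index was higher than each of these in 24 of 24 mice (sign-flip permutation test, adjusted p = 1.33e-05, from the smallest p that the resamples can give). IGHG2C with IGHG3 had 0.145 ± 0.040, a difference of 0.0127 with a higher IGHG2B-IGHG2C value in 16 of 24 mice (permutation adjusted p = 0.0542). The last comparison did not pass. Among clonotypes with at least 2 counts of each gene that difference was 0.0493 (permutation adjusted p = 1e-05). The median with IGHA was 0.140 for IGHG2B and 0.080 for IGHG2C, given without a test. The highest value the index can take falls as the sets become more unequal in size. Summed over spleens there were 33224 IGHG2C, 19324 IGHG3 and 14729 IGHG1 clonotypes. By share of the smaller set the order varied between mice. In PBS-T mouse 9, 27.4% of IGHG3 and 23.4% of IGHG2C clonotypes also had IGHG2B, and in PBS-T mouse 5, 22.9% and 31.5%. The part of set size was not tested.

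The index did not pass between groups. NOD-FMT spleens had 0.158 ± 0.031 (SD, n = 10) and PBS-T spleens 0.163 ± 0.035 (SD, n = 9), a difference of -0.0057 (exact permutation p = 0.709). In the LG the index was 0.104 ± 0.066 (SD, n = 10) and 0.093 ± 0.095 (SD, n = 8), a difference of 0.011 (exact permutation p = 0.776). Among merged LG libraries it was 0.054 and among the others -0.020 (exact permutation p = 0.081 and 0.743). IgA was the isotype looked for next. A median of 35.1% of LG IGHG2B and 18.5% of LG IGHG2C clonotypes also had IGHA counts, and the IGHG2B share was the higher one in 20 of 24 libraries, against 15 of 24 in the spleen. This was not tested.

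**Figure D5:**
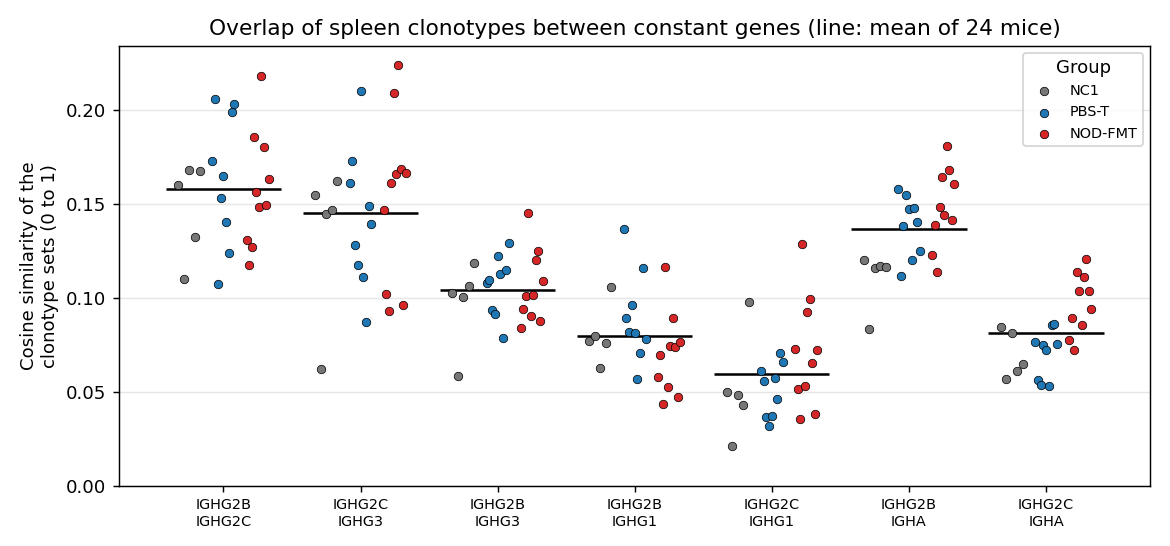
Cosine index (0 to 1) between the clonotype sets of pairs of constant genes in the 24 spleens. Points are mice coloured by group and lines are means. The IGHG2B-IGHG2C pair has a mean of 0.158 and the IGHG2C-IGHG3 pair 0.145, and the pairs with IGHG1 have 0.079 and 0.060.

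Few IgG2 clonotypes recurred between mice. Of 70146 distinct spleen IGHG2B clonotypes 98.6% were in 1 mouse, and of 32811 IGHG2C clonotypes 99.1%. Of the 5 spleen clonotypes of each gene found in the most mice, 4 had HCDR3s of 5 to 8 residues and 1 had 11, and 3 are shown by the HCDR3 form found in the most mice, 5′ to 3′ in lower case with no part marked.
IGHV1-55/IGHJ3, HCDR3 ARGFTY: gcaagagggtttacttac
IGHV8-5/IGHJ3, HCDR3 AQMRGFAY: gctcaaatgagggggtttgcttac
IGHV1-80/IGHJ3, HCDR3 ARGAY: gcaagaggggcttac

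ARGFTY was IGHG2B in 17 spleens, 9 NOD-FMT, 8 PBS-T and 0 NC1, with 1 to 198 counts. With any constant gene it was in 10 of 10 NOD-FMT, 9 of 9 PBS-T and 0 of 5 NC1 spleens. AQMRGFAY was IGHG2C in 15 spleens, 10 NOD-FMT, 2 PBS-T and 3 NC1, with 1 to 45 counts, and IGHG2B in 11. It was found as IGHG3 in all 24 spleens, so its presence with any isotype did not differ. Without the filter on shared sequences it was IGHG2C in 10 NOD-FMT, 7 PBS-T and 5 NC1 spleens, so the group counts rest on that filter. For both clonotypes the highest count was in NOD-FMT mouse 3, the deepest library, and the part of depth was not tested. ARGAY was IGHG2B in 10 and IGHG2C in 9 spleens, with up to 2171 counts in PBS-T mouse 2. Also found in 9 or 10 spleens as IGHG2B were TTGGFAY (IGHV14-4/IGHJ3), ARRGDGYYFDY (IGHV1-76/IGHJ2) and TGDGFAY (IGHV6-3/IGHJ3). The last, outside the lists of 5 and named after its values were seen, was IGHG2B in 9 NOD-FMT, 0 PBS-T and 0 NC1 spleens, with 1 to 36 counts, and with any constant gene in 10, 0 and 1. Without the filter its IGHG2B was in the same numbers of spleens. How many other clonotypes were found mainly in 1 group, of any of the groups, was not counted. The recurring LG clonotypes were of another kind. ARWWLLGAMDY, IGHV2-2/IGHJ4, was IGHG2B in 7 LG libraries, 4 PBS-T and 3 NC1, with 1439 of its 1449 counts in PBS-T mouse 5. ARSGGDY, IGHV1-63/IGHJ2, was IGHG2C in 7, with 728 of 735 counts in PBS-T mouse 5. Each of the 5 most frequent LG clonotypes of either gene had its highest count in that library, which shares sequences with other glands as given above.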

How the data were processed

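Heavy chains were sequenced from LG and spleen of 24 mice as paired reads of 250 bases. The authors merged reads with PEAR v0.9.10, kept those with a Phred score of at least 20 in over 95% of bases, left out UMIs read once and aligned the rest into consensus sequences (Clustal Omega v1.2.4), took constant genes from IMGT, and used IgBLAST v1.17.1 for V(D)J genes. Unproductive sequences were dropped. The submitters' processing notes name mm10. The germline release is not given in the sources used here. For each unique sequence the authors deposited a count of its consensus sequences, without normalization, and that count as a fraction of its library. V mutations are the authors' numbers of mismatches to the germline V gene.

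From there, a sequence found with the same bases in over 2 mice of 1 tissue was left out, and shares were tested as log2 of percent with 0.5 added to the counts. Libraries entered a within-library test with at least 10 unique sequences or clonotypes of each gene. NOD-FMT, PBS-T and NC1 mice were compared by two-sided exact permutation over all splits, within-mouse differences by sign flips (exact up to 16 mice, else 100000 resamples, smallest p 1e-05), and V genes by edgeR's quasi-likelihood test (4.0.16, TMM, R 4.3.3). The threshold was an adjusted p of 0.05 (Benjamini-Hochberg). Scripts were tested on simulated data. Alternatives were other filters, units, weights, DESeq2 1.42.0, a replicate block, the merged mark and each mouse left out.

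Named were the V genes past the threshold (at most 8 in each direction) and all 8 constant genes. Clonotypes came from 2 lists of each tissue and member, the 5 with the largest share (at least 100 counts) and the 5 found in the most mice. Not every clonotype of these lists was named, and TGDGFAY was added from outside them. The members and lists were chosen with earlier results of these data known. Mice, not libraries or clonotypes, are the replicates. Permutations used NumPy 2.4.6 in Python 3.11.15.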

Additional observations from a re-analysis of the deposited data

Results flagged for a closer look

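Of 60 groups of 5 to 10 libraries examined by Dixon's test, 5 had 1 library set apart from the others, where chance gives about 1 in 20. In the PBS-T LG, mouse 5 had 1234 IGHG2B clonotypes and 1213 IGHG2C clonotypes, while the other 8 had at most 71 and 125. This is the library with 0.156% of its member sequences in its own spleen. In the NC1 spleens, the largest clonotype took 41.4% of the IGHG2B counts of mouse 3 and 42.6% of the IGHG2C counts of mouse 1. In the NOD-FMT spleens, mouse 3 had 11162 IGHG2B clonotypes, and its library was also the deepest, with 2032338 counts.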

How the results depend on the processing

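For 42 results, 1128 alternatives were run, and 1040 were judged the same. Same means the same direction and side of the threshold or, for numbers of V genes called, a similar number, whichever V genes these were. Removing sequences found in 2 or more mice gave 1.14 for IGHG2B in NOD-FMT against NC1 spleens (adjusted p = 0.012, exact permutation test), 0.28 for the LG ratio in NOD-FMT against PBS-T, -0.32 for LG IGHG2C in PBS-T against NC1 and 0.0136 for the IGHG2C-IGHG3 index difference (permutation adjusted p = 0.045). With shares of clonotypes, NOD-FMT minus NC1 was 1.07 for spleen IGHG2B and -0.84 for the LG ratio (both with an exact permutation adjusted p of 0.018) and 0.40 for LG IGHG2B. NOD-FMT minus PBS-T was 0.098 for LG IGHG2B and -0.21 for spleen IGHG2C, PBS-T minus NC1 was 0.24 for the LG ratio, and LG minus spleen was 1.58, 1.81 and 0.23 for IGHG2B, IGHG2C and the ratio. In plain percent, spleen IGHG2C was -0.0214 for NOD-FMT minus PBS-T, and LG minus spleen was -2.15 for IGHG2B and -0.964 for IGHG2C (permutation adjusted p = 0.0869 and 0.531). As shares of IgG counts, NOD-FMT minus PBS-T was 1.31 and 1.2 for LG IGHG2B and IGHG2C and -0.27 for spleen IGHG2C. NOD-FMT minus NC1 was 0.20 for LG IGHG2B and -0.44 for spleen IGHG2C. PBS-T minus NC1 was -1.11 and -1.56 for LG IGHG2B and IGHG2C and -0.17 for spleen IGHG2C, and LG minus spleen was 0.24 for IGHG2B (permutation adjusted p = 0.313). The merged LG libraries gave 0.30, 0.35 and 0.04 for IGHG2B, IGHG2C and the ratio in NOD-FMT against PBS-T. Without PBS-T mouse 5 and NC1 mice 2 and 3, chosen after seeing the data, the LG values were 0.16 for the ratio in NOD-FMT against PBS-T, and 0.33 and 0.061 for IGHG2B and IGHG2C in NOD-FMT against NC1.

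Weighted by counts, IGHG2C minus IGHG2B was 0.62 and -0.24 mismatches in the LG and the spleen, and -15.6 and 8.77 points unmutated. Averaged over clonotypes it was 0.21 mismatches in the spleen (permutation adjusted p = 0.00344), and spleen IGHG2C mismatches differed by 0.077 between NOD-FMT and PBS-T. With at least 30 sequences the LG value was 0.40 mismatches (permutation adjusted p = 0.179). Without the filter on shared sequences the LG charge differed by -0.18 (permutation adjusted p = 0.023). With at least 2 counts of each gene, the IGHG2C-IGHG3 index difference was 0.0493 and the LG index differed by -0.0106 between NOD-FMT and PBS-T. For IGHG2C against IGHG2B, 8 V genes passed with DESeq2, 3 with counts per V gene and 5 with no replicate block. For IGHG2C between the groups, 0 passed edgeR with counts per V gene, with 12 at an unadjusted p below 0.05. The causes were not tested.

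With each mouse left out, 43 of 818 values changed. The ranges were 0.88 to 1.23 for spleen IGHG2B in NOD-FMT against NC1, -0.169 to -0.0912 for the LG charge, 0.0105 to 0.0155 for the IGHG2C-IGHG3 index difference and -0.00313 to 0.0377 for the LG index between groups. They were -0.52 to 0.74 for the LG ratio in NOD-FMT against PBS-T, -0.26 to 0.33 and -0.88 to 0.091 for LG IGHG2B and IGHG2C in NOD-FMT against NC1, -0.48 to 0.90 for LG IGHG2C in PBS-T against NC1, and -0.224 to 0.132 for spleen IGHG2C mismatches. V genes past the threshold were 8 to 15 between subclasses (8 without NOD-FMT mouse 9, NOD-FMT mouse 10 or PBS-T mouse 4), 3 to 14 in IGHG2B (3 without NOD-FMT mouse 6 or PBS-T mouse 6, 4 without NOD-FMT mouse 7, 14 without PBS-T mouse 8) and 1 to 4 in IGHG2C (1 without NOD-FMT mouse 3).

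The main tests did not pair NOD-FMT with PBS-T mice by number. The correlation of same-numbered mice was over 0.1 in 1 of 9 pairs in the LG (-0.491 to 0.724) and 4 of 9 in the spleen (-0.86 to 0.761). Mice of different numbers were not compared, so these values cannot settle whether the numbers pair mice. A replicate block by number gave -0.72, -0.88 and -0.16 for IGHG2B, IGHG2C and the ratio in the LG and 0.54, 0.30 and -0.24 in the spleen, with 8 V genes in IGHG2B (6 of them among the 7) and 4 in IGHG2C (with all 3). With the replicate block the named V gene that no longer passed was IGHV5-9. LG IGHG2C rests on 6 to 125 clonotypes outside PBS-T mouse 5.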
